A study of Mus musculus with 6 samples.

Results

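Chemokines are small secreted or membrane-bound proteins that guide moving cells, and cells of the osteoblast line make several of them. The genes described here are 10 chemokine genes chosen by name: Ccl2, Ccl7 and Ccl5 of the CC family, Cxcl1, Cxcl2, Cxcl5, Cxcl12, Cxcl14 and Cxcl16 of the CXC family, and Cx3cl1, the CX3C chemokine gene. All 10 were on the array, with 11 probes in all, and 6 of them were among the 15535 genes that could be tested. The cells were MC3T3-E1, a line of mouse pre-osteoblasts, kept for 3 days on scaffolds in 24-well plates before RNA was taken. For De-HA (n = 3) the support was a FeMnSi scaffold, an alloy of iron, manganese and silicon, that had been dealloyed and given a coating of bioactive material. For FeMnSi (n = 3) it was the original scaffold. Every group therefore holds the same cell line on a scaffold, and no culture without a scaffold was analysed here.

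In bone, Ccl2 and its close relative Ccl7 call monocytes through the receptor CCR2 and with them the precursors of osteoclasts, while Ccl5 acts on monocytes and T cells. Cxcl1, Cxcl2 and Cxcl5 attract neutrophils through CXCR2. Cxcl12 holds blood stem cells in the marrow through CXCR4 and is cleared by the scavenger receptor ACKR3. Cxcl16 and Cx3cl1 are made as membrane proteins, can be shed by the proteases ADAM10 and ADAM17, and bind CXCR6 and CX3CR1. Many of the inflammatory members are switched on by the transcription factor NF-kappaB.

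Agilent arrays of 1 colour were used, 1 for each sample. Values are processed signals, an intensity in arbitrary units that is background-subtracted within the array, and tests used log2 signals relative to the 75th percentile of the array. A probe is called well above background by the scanner software, and a gene was tested if its probe was so on at least 3 of the 6 arrays. The lowest signal called well above background reached 23.9 for De-HA 1 and lay between 11.7 and 14.5 for the other arrays. No spot was saturated, and 63.5% to 74.4% of probes were well above background. The labels do not say whether replicates were separate cultures, so p-values reflect only how these samples vary, possibly for technical reasons. Scan times place all De-HA arrays and FeMnSi 1 together and FeMnSi 2 and 3 together. These sets are called slide 1 and slide 2 here, which is inferred from the scan times alone. A fit with the slide as a block compares the De-HA arrays with FeMnSi 1 and takes the spread from all arrays. All 12 osteoblast markers were well above background on every array, with a summed level of 301 to 347 times the 75th percentile in De-HA and 237 to 284 times in FeMnSi, and 5 of them rose and 1 fell by the test described next, where 6.37% of all genes rose and 4.31% fell. Of those named, the mineralization gene Phex (log2 fold change 1.66), the bone sialoprotein gene Ibsp (0.79) and the alkaline phosphatase gene Alpl (0.85) rose. So did the transcription factor gene Runx2 (0.56), while the osteopontin gene Spp1 fell (-1.08). The other probe of Ibsp gave 0.17, and with the mean of its probes Ibsp gave 0.48 and did not pass. Phex and Spp1 were the 2 of the 12 that passed with the slide as a block, against 1.25% of all genes. In bulk RNA, fewer cells of a kind and less RNA per cell cannot be told apart.

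Of the 10 chemokine genes, Ccl2 rose in De-HA by 1.73-fold. Cxcl12 passed by 1 of its 2 probes, at 1.67-fold, and not by the other. Ccl7, Ccl5, Cxcl16 and Cx3cl1 were measured but did not pass the test. Cxcl1, Cxcl2, Cxcl5 and Cxcl14 stayed below the background criterion on all 6 arrays. The test was limma with Benjamini-Hochberg adjustment over all 15535 genes and an adjusted p threshold of 0.05. It placed 2 of the 6 tested members past the threshold, both higher, where 6.37% of all genes were higher, 4.31% were lower and 10.7% changed in either direction. At an unadjusted p under 0.05 it placed 3 of the 6, Ccl2, Ccl7 and Cxcl12, against 33.7% of all genes. Each of the 6 was well above background on at least 2 arrays of each group, so none was kept through its level in 1 group alone. With the slide as a block no member passed, against 1.25% of all genes.

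**Figure D1:**
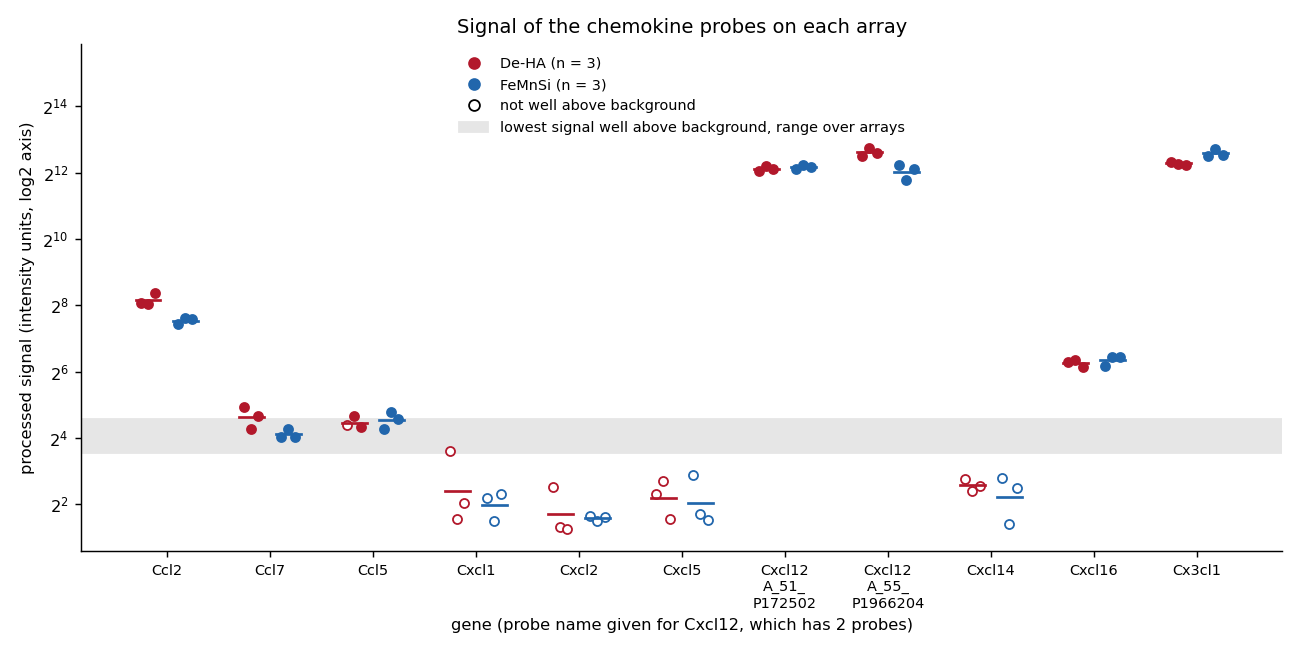
Processed signal (intensity units, log2 axis) of the 11 probes on each array, with De-HA on the left and FeMnSi on the right of each gene (n = 3 each), the group mean of log2 signals as a bar and open points where the probe was not well above background. Cxcl1, Cxcl2, Cxcl5 and Cxcl14 lie below or within the grey band of lowest signals well above background, and the Ccl2 points of the groups are apart.

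Ccl2, the main monocyte attractant, had signals of 268, 265 and 334 in De-HA, against 173, 195 and 191 in FeMnSi. Every De-HA array was higher than every FeMnSi array, and De-HA 3 was the highest. The log2 fold change was 0.79 ± 0.14 (SE, limma, adjusted p = 0.0216), with 0.76 after quantile normalization and 0.82 within slide 1. The probe of Ccl2 is printed 10 times on each array, which gives a measure of technical error that the other members lack. The 10 spots ran from 248 to 291 (De-HA 1), 240 to 276 (De-HA 2) and 302 to 361 (De-HA 3), against 155 to 188 on FeMnSi 1, 172 to 211 on FeMnSi 2 and 171 to 206 on FeMnSi 3. No spot of a De-HA array was as low as any spot of a FeMnSi array. Taken singly, the 10 spot positions gave log2 fold changes of 0.74 to 0.84. The SD between spots of an array was 0.06 to 0.10 on the log2 scale, and the SD between arrays, each a mean of its spots, was 0.26 in De-HA and 0.03 in FeMnSi. The call was lost without De-HA 1 (adjusted p = 0.0539), De-HA 3 (0.0538), FeMnSi 2 (0.0634) or FeMnSi 3 (0.0768), with log2 fold changes of 0.64 to 0.89 over the 6 fits that leave out 1 array, and when the fit blocked on slide (adjusted p = 0.113).

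**Figure D2:**
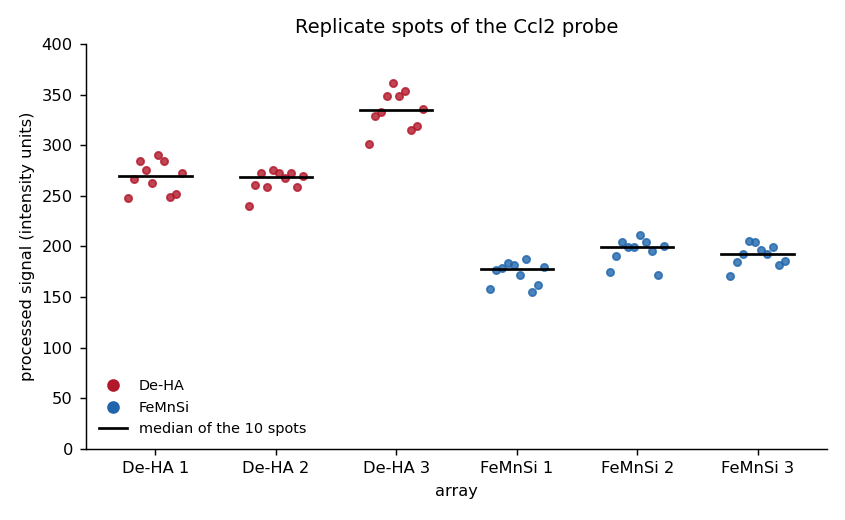
Processed signal (intensity units) of the 10 spots of the Ccl2 probe on each array, De-HA arrays on the left and FeMnSi arrays on the right, with the median of the 10 spots as a bar. The De-HA spots lie between 240 and 361 and the FeMnSi spots between 155 and 211.

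Ccl7, which acts on the same receptor, was dim, with signals of 30.4, 19.3 and 25.4 in De-HA and 16.4, 19.5 and 16.2 in FeMnSi. The unscaled signals overlapped at De-HA 2 and FeMnSi 2, while the scaled values did not overlap. Its log2 fold change of 0.67 ± 0.19 (SE, 0.67 within slide 1) did not pass in limma (adjusted p = 0.0657) and was 0.45 after quantile normalization and 0.33 after normexp background correction. It passed without De-HA 2, at 0.88 (limma adjusted p = 0.0327). Ccl7 follows Ccl2 directly on chromosome 11 in the RefSeq annotation of GRCm38.p6, and the next protein-coding genes are the chemokine genes Ccl11 and Ccl12. Neither of these was well above background on any array, with signals of 4.28 to 6.97 for Ccl11 in De-HA and 2.49 to 8.22 in FeMnSi. Ccl5, which lies elsewhere on the same chromosome, had signals of 20.8, 25.1 and 20.1 in De-HA, against 19.5, 27.7 and 23.7 in FeMnSi. The groups overlapped, De-HA 1 was not well above background, and the log2 fold change was 0.07 ± 0.12 (SE, limma adjusted p = 0.705, 95% interval -0.22 to 0.36), with -0.15 after quantile normalization.

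The neutrophil chemokines Cxcl1, Cxcl2 and Cxcl5 gave no signal that could be compared. Cxcl1 had signals of 12.1, 2.95 and 4.11 in De-HA and 4.59, 2.81 and 4.92 in FeMnSi. Cxcl2 had 5.77, 2.47 and 2.40 in De-HA and 3.13, 2.82 and 3.09 in FeMnSi. Cxcl5 had 4.94, 6.52 and 2.96 in De-HA and 7.39, 3.29 and 2.90 in FeMnSi. All of these lie under the lowest signal called well above background on their own array, and the highest values of Cxcl1 and Cxcl2 were on De-HA 1, where that lowest signal was also highest. Cxcl14, a chemokine of epithelia and stroma, was likewise not well above background, with 6.79, 5.29 and 5.87 in De-HA and 6.89, 2.67 and 5.59 in FeMnSi. No fold change is given for these 4 genes, since each group was below background.

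The proximal promoters of Cxcl1 and Cxcl2, whose probes were not above background, are shown with those of Cxcl12 and Cx3cl1, whose probes were well above it on all arrays. Each is the 250 bases before the start site in RefSeq, build GRCm38.p6, and capitals mark matches on either strand to the NF-kappaB-like motif (GGG, any 3 bases, then TTCC).
Cxcl1 (chr5:90890995-90891244, plus strand): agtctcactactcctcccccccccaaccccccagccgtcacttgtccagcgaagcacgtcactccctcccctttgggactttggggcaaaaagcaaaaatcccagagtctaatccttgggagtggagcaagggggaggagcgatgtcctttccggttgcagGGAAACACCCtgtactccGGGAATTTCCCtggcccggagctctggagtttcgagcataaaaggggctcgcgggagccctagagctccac
Cxcl2 (chr5:90903649-90903898, plus strand): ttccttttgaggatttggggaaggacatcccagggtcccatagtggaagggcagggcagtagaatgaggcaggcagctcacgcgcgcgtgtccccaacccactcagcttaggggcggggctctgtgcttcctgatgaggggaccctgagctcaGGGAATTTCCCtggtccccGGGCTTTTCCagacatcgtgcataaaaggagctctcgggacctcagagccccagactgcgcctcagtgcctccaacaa
Cxcl12 (chr6:117168285-117168534, plus strand): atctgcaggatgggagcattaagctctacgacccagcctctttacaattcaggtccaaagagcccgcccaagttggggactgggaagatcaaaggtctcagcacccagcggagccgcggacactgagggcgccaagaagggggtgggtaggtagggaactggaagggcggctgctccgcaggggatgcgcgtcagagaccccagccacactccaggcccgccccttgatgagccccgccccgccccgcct
Cx3cl1 (chr8:94771930-94772179, plus strand): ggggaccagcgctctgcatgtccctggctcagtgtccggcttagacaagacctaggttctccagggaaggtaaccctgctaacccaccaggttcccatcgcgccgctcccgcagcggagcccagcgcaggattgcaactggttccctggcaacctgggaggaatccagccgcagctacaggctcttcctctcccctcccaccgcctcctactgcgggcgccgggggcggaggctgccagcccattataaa
Promoter sequences were matched by symbol for 5 members, those shown and Cxcl14, and not for Ccl2, Ccl7, Ccl5, Cxcl5 or Cxcl16. Cxcl1 and Cxcl2 held the motif and the other 3 did not, and 4.65% of 32851 such windows hold it. Cxcl14, without the motif, was also well above background on no array. In Cxcl1 the match GGGAATTTCC begins 71 bases before the start site and overlaps a match on the other strand, and a further match on that strand, GGAAACACCC, begins 89 bases before it. In Cxcl2 the same letters GGGAATTTCC begin 97 bases before the start site, again with an overlapping match on the other strand, and GGGCTTTTCC begins at 78. The AP-1 motif TGANTCA was found in 0 of the 5, and 6.75% of windows hold it. A match is a description of letters and not of a bound site.

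Cxcl12, the marrow-retention chemokine, has 2 probes on the array, which name different RefSeq transcripts of the gene, and they did not give the same result. By probe A_55_P1966204 signals were 5736, 6841 and 6146 in De-HA, against 4764, 3508 and 4364 in FeMnSi. All De-HA arrays were higher, and FeMnSi 2 was the lowest. This probe gave a log2 fold change of 0.74 ± 0.16 (SE, limma, adjusted p = 0.0352), with 0.60 after quantile normalization and 0.47 within slide 1. It stands for the gene because its mean over all arrays is higher, and that holds through De-HA: its mean log2 level was 3.35 in De-HA and 2.61 in FeMnSi, against 2.86 and 2.75 for the other probe. The choice of probe was thus decided by the difference under test, and the p for the gene is not independent of it. By probe A_51_P172502 signals were 4215, 4674 and 4380 in De-HA and 4380, 4755 and 4630 in FeMnSi. The unscaled signals overlapped while the scaled values did not, and the log2 fold change was 0.11 ± 0.09 (SE, limma over all 28175 kept probes, adjusted p = 0.406, against 0.0447 for the other probe and 6.93% of probes called, 4.33% as higher). It was -0.03 after quantile normalization and 0.01 with median scaling, so that its sign depends on the scaling.

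The log2 ratio of probe A_55_P1966204 to the other was 0.44 to 0.55 in De-HA and -0.44 to 0.12 in FeMnSi. The groups do not overlap in this ratio, in which any scaling of an array by a constant cancels. Tested by limma over the 3936 genes with at least 2 kept probes, the probes' log2 fold changes differed by 0.63 ± 0.16 (SE), which did not pass (adjusted p = 0.106, with 0.178% of genes called). The two-sided exact permutation p over arrays was 0.1, the smallest that 3 arrays against 3 allow. With the mean of the probes, Cxcl12 gave 0.42 and did not pass (limma adjusted p = 0.0505). The call was also lost without De-HA 1, De-HA 2, De-HA 3, FeMnSi 2 or FeMnSi 3 (adjusted p = 0.0598 to 0.121), with median scaling (0.0598) and with the slide as a block (0.231), where the value fell to 0.47. Which of the probes follows the gene's RNA more closely was not tested.

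**Figure D3:**
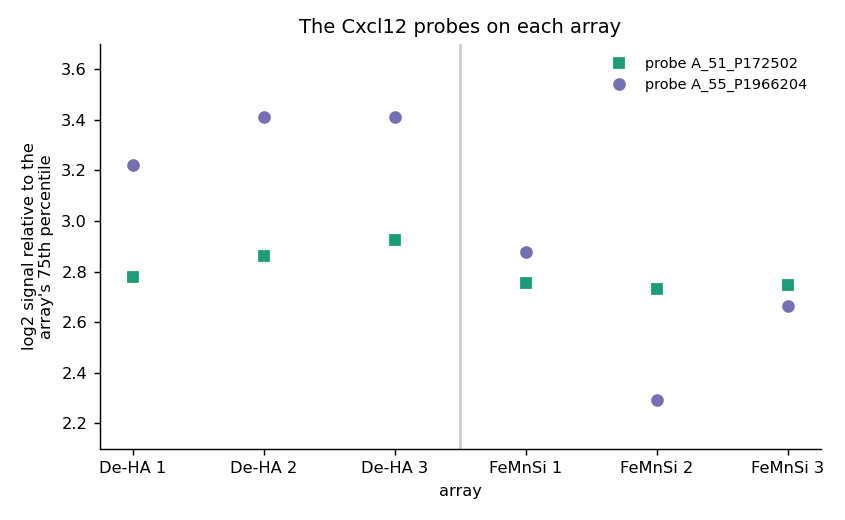
Log2 signal relative to the 75th percentile of the array for the Cxcl12 probes, De-HA arrays on the left and FeMnSi arrays on the right. Probe A_55_P1966204 is above probe A_51_P172502 by 0.44 to 0.55 on the De-HA arrays, and by -0.44 to 0.12 on the FeMnSi arrays.

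The membrane-bound chemokines did not pass the test. Cxcl16, which also acts as a scavenger receptor, had signals of 77.7, 80.9 and 71.1 in De-HA and 71.5, 86.0 and 86.8 in FeMnSi. The groups overlapped, with a log2 fold change of 0.08 ± 0.09 (SE, limma adjusted p = 0.539, 95% interval -0.13 to 0.29) and of -0.03 with median scaling. Cx3cl1, or fractalkine, had signals of 5093, 4937 and 4816 in De-HA, against 5763, 6623 and 5941 in FeMnSi. All De-HA arrays were lower. The log2 fold change was -0.14 ± 0.08 (SE, limma adjusted p = 0.272, 95% interval -0.34 to 0.06), and it was -0.30 after quantile normalization (limma adjusted p = 0.104) and -0.13 within slide 1.

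Over the 6 tested members the median log2 fold change was 0.38, against 0.10 for all genes, and 0.23 against -0.01 after quantile normalization. The median of all genes thus moved by more than 0.1 with the scaling, and relative to it Ccl2 stood at 0.69, Cxcl12 at 0.63, Ccl7 at 0.57, Cxcl16 at -0.03, Ccl5 at -0.04 and Cx3cl1 at -0.24. Cxcl12 enters these values by probe A_55_P1966204, which was chosen through the difference under test. Its other probe gave 0.11, and -0.03 after quantile normalization, each near the median of all genes. The median of the members depends on that choice, so it does not show a shift of the members as a set. The scaled values of the groups did not overlap for 4 of the 6, Ccl2, Ccl7, Cxcl12 and Cx3cl1, where this held for 39.6% of all genes.

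**Figure D4:**
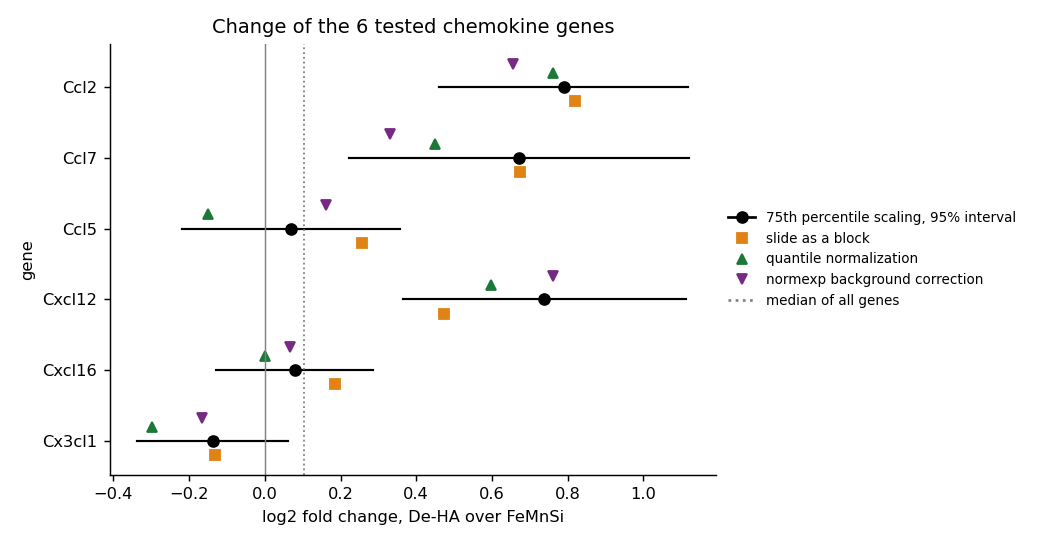
Log2 fold change of De-HA over FeMnSi for the 6 tested chemokine genes with the 95% interval from limma, beside the values with the slide as a block, after quantile normalization and after normexp background correction. The intervals of Ccl2, Ccl7 and Cxcl12 lie above the dotted median of all genes at 0.10, and Ccl5 falls on either side of 0.

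The receptors for these ligands were mostly not measurable. Ccr1, Ccr2, Cxcr4 and Cx3cr1 were well above background on none of the arrays, and Cxcr1 on 0 De-HA arrays and 1 FeMnSi array. Of the 18 chemokine receptor genes 8 could be tested, and 0 passed in limma, where 10.7% of all genes changed. At an unadjusted p under 0.05 there were 2 of the 8, Ccr7 and Cxcr2, against 33.7% of all genes. Cxcr2, the receptor for Cxcl1, Cxcl2 and Cxcl5, had signals of 43.5, 30.3 and 29.5 in De-HA and 30.1, 23.9 and 26.0 in FeMnSi (log2 fold change 0.52 ± 0.19 SE, limma adjusted p = 0.114). Ccr7, a receptor of lymphoid homing, gave -0.78 ± 0.28 (SE, limma adjusted p = 0.109, -0.13 within slide 1). Its signals were near background, with 10.8, 13.9 and 12.8 in De-HA and 14.4, 34.4 and 27.5 in FeMnSi, and 2 arrays of each group well above it. The value was -0.08 after normexp and -0.40 with low signals raised to the lowest signal well above background. Cxcr6, which binds Cxcl16, gave 0.07 (limma adjusted p = 0.796, -0.33 within slide 1). Among the scavenging receptors, Ackr3, which clears Cxcl12, had signals of 126, 141 and 121 in De-HA, against 161, 222 and 199 in FeMnSi. All De-HA arrays were lower, but the value of -0.41 ± 0.11 (SE) did not pass in limma (adjusted p = 0.0558, -0.23 within slide 1). Ackr4, which clears the homeostatic CC chemokines, rose by 0.51 ± 0.09 (SE, limma adjusted p = 0.0236, 0.58 within slide 1). It was the 1 of 4 tested scavenging receptors to pass, where 10.7% of all genes changed. Ackr4 did not pass with median scaling (limma adjusted p = 0.0568) or with the slide as a block (0.0866), and it passed under 9 of 19 alternatives. Ackr1, a promiscuous chemokine-binding receptor, gave 0.33 (limma adjusted p = 0.593), and 1.34 with a pass when slide was blocked (0.0471). That fit sets the De-HA arrays against FeMnSi 1, where the Ackr1 signal was 5.76, under the array's lowest signal well above background of 14.5. Ackr1 was well above background on 1 De-HA array and 2 FeMnSi arrays, so the pass rests on signals near or under background. Ackr2 was well above background on 2 De-HA arrays and 0 FeMnSi arrays and was not tested.

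Of 27 other chemokine genes, 26 were on the array, 15 of these were well above background on no array and 11 could be tested. Ccl28, a mucosal chemokine, fell, with signals of 25.220, 26.191 and 24.996 in De-HA against 41.3, 49.0 and 44.8 in FeMnSi (log2 fold change -0.66 ± 0.08 SE, limma adjusted p = 0.00871, -0.61 within slide 1). All De-HA arrays were lower, and 1 of them was not well above background. After normexp it gave -0.16 and did not pass (limma adjusted p = 0.197), nor did it pass with the slide as a block (0.0646). The other 10 did not pass, where 6.37% of all genes rose and 4.31% fell. The median of the 11 was 0.16, against 0.10 for all genes.

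Genes that switch chemokines on were described by fixed lists, chosen with earlier results of these data known. Of 25 tested receptors and adaptors for inducing cytokines and microbial products, 3 rose and 1 fell (median 0.05), near the 10.7% of all genes that changed. Il1rap, the co-receptor for interleukin-1, rose by 0.95 ± 0.16 (SE, limma adjusted p = 0.0176), with 1.29 within slide 1, and its other probe gave 0.26. Ifngr1, a chain of the interferon-gamma receptor, and Lifr, a receptor for leukaemia inhibitory factor, rose by 0.42 and 0.40, but not after quantile normalization (limma adjusted p = 0.129 and 0.120). Tlr3, a receptor for double-stranded RNA, fell by 0.90 ± 0.11 (SE, limma adjusted p = 0.00839, -0.82 within slide 1), but gave -0.28 and did not pass after normexp (0.0823). Of 17 tested NF-kappaB subunits and feedback genes 1 rose (median 0.11), near the 6.37% of all genes that rose. It was Tnfaip3, which encodes the NF-kappaB inhibitor A20, with 0.81 ± 0.09 (SE, limma adjusted p = 0.00768, 0.88 within slide 1). Of 18 tested NF-kappaB target genes that are not chemokines 2 rose (median 0.16), against the same 6.37% of all genes. They were the transcription factor gene Cebpd, by 0.90 ± 0.14 (SE, 0.75 within slide 1), and the macrophage growth factor gene Csf1, by 0.61 ± 0.10 (SE, 0.58 within slide 1, its 3 probes from -0.17 to 0.61).

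Regulators of mRNA decay act on short-lived chemokine transcripts. Of 12 tested, 3 rose and 1 fell (median 0.10), where 6.37% of all genes rose and 4.31% fell. Zfp36, encoding tristetraprolin, which destabilises AU-rich mRNAs, fell by 1.03 ± 0.08 (SE, limma adjusted p = 0.00219, -1.07 within slide 1, -0.67 after normexp), and it passed when the fit blocked on slide (0.0228). Arid5a, which stabilises some inflammatory mRNAs, rose by 0.70 ± 0.09 (SE, limma adjusted p = 0.0107, 0.57 within slide 1), the decay factor gene Khsrp by 0.54 and the decay factor gene Rc3h1 by 0.35, the last not after quantile normalization (limma adjusted p = 0.111).

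Of 13 tested proteases and inhibitors that process chemokines, Timp1, an inhibitor of metalloproteases, fell by 0.49 ± 0.09 (SE, limma adjusted p = 0.0264, -0.44 within slide 1) and none rose (median 0.05), where 4.31% of all genes fell. Dpp4, which trims Cxcl12, was well above background on 1 De-HA array and 0 FeMnSi arrays and was not tested. Of 16 tested heparan sulfate carriers and enzymes, which hold chemokines at the cell surface, 2 rose (median 0.12), Sdc4 by 0.45 ± 0.10 and Gpc4 by 0.51 ± 0.12 (SE, limma adjusted p = 0.0340 and 0.0443), with 0.53 and 0.30 within slide 1. Sdc4 did not pass after quantile normalization (limma adjusted p = 0.0650), nor either gene with median scaling (0.0868 and 0.101), and 6.37% of all genes rose. Of the genes named from these lists, Il1rap, Tnfaip3 and Zfp36 passed in the fit that blocks on slide too, where 1.25% of all genes passed. Genes of these lists were named for their small p-values in the main fit on the same arrays, so this is no separate result.

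**Figure D5:**
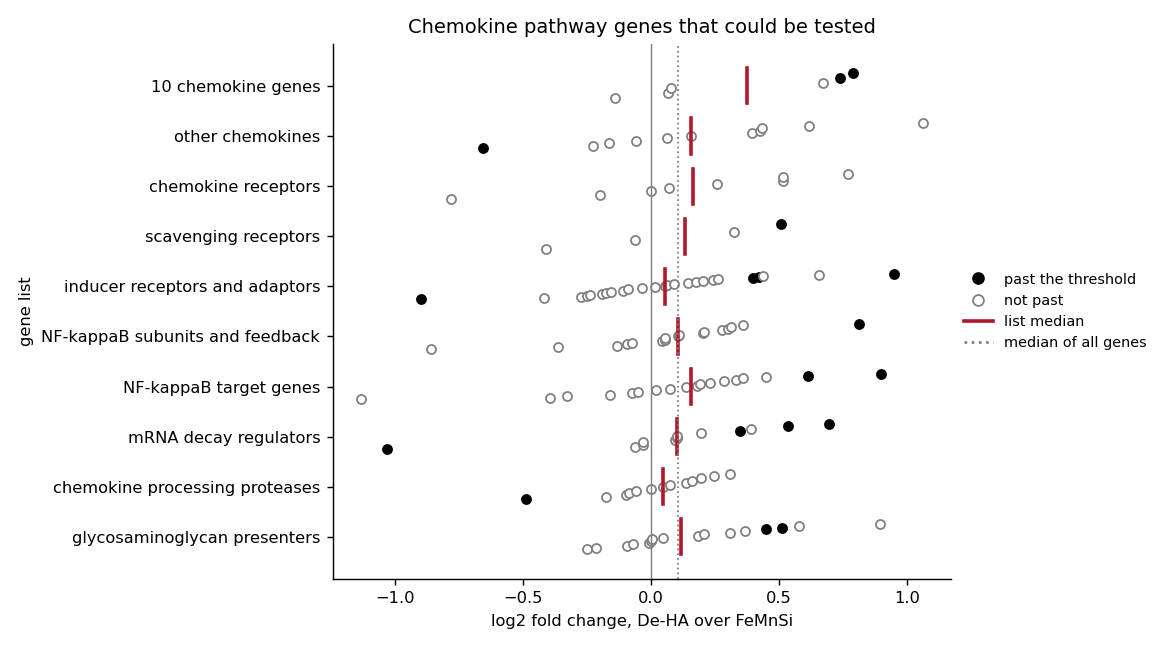
Log2 fold change of De-HA over FeMnSi for the tested genes of the 10 chemokine genes and of each pathway list, filled where the adjusted p passed 0.05, with the list median as a red bar and the median of all genes dotted. There are 2 filled points among the 6 tested chemokine genes and 0 among the 8 tested chemokine receptors.

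Some markers of other cell types that make or answer chemokines passed the test as well. The summed levels given here include markers that were not well above background. Of 11 myeloid markers with a probe, 8 were well above background on all arrays, and Tyrobp and Spi1 on none. Their summed level was 4.951 to 5.504 times the 75th percentile in De-HA and 3.72 to 4.87 times in FeMnSi. Adgre1 rose by 0.78 and Ptprc by 0.56, Lyz2 fell by 0.39, and 6 other tested markers did not pass. Of all genes 6.37% rose and 4.31% fell. Lyz2 gave -0.033 after normexp (limma adjusted p = 0.781), Ptprc did not pass after quantile normalization (0.119), and none of the 3 passed with the slide as a block (0.0754 for Adgre1, 0.267 for Ptprc and 0.163 for Lyz2). Of 8 endothelial markers with a probe, 3 were well above background on all arrays, and Cdh5, Tek, Tie1 and Emcn on none. The summed level of that list was 0.895 to 1.00 in De-HA and 0.697 to 0.728 in FeMnSi. All 3 tested members had values above 0, and 2 passed as higher (Kdr 0.41, Esam 0.60), against 6.37% of all genes. Neither passed with median scaling, or with the slide as a block (limma adjusted p = 0.146 and 0.281), and Esam gave 0.30 after normexp and did not pass (0.0774). For adipocyte markers the summed level was 0.286 to 0.333 in De-HA and 0.376 to 0.404 in FeMnSi, with Adipoq and Cidec well above background on no array. Of 5 tested members only Fabp4 passed (log2 fold change -1.99, and -0.86 after normexp), where 4.31% of all genes fell. The other 4 had values above 0, up to 0.94, and the median of the 5 was 0.29. The lower sum therefore does not describe the list as a whole. The part of these markers in the change of Ccl2 and Cxcl12 was not tested.

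Genes with a like pattern were looked for among tested genes of similar signal, by the root mean square difference of centred log2 values over the 6 arrays. For Ccl2 the nearest of 2844 were Afdn (0.107), Zbed6 (0.121) and Dhrs3 (0.125), and for Cxcl12 the nearest of 2342 were Cyp26b1 (0.0450), Cdc42ep1 (0.0559) and Fam160a1 (0.0646). All 6 passed as higher in De-HA, with log2 fold changes of 0.71 for Afdn and 0.91 for Dhrs3 at the ends of the range. They were chosen for closeness on these same arrays, so their direction followed from the choice and is no separate result. For Cxcl12 the pattern was that of probe A_55_P1966204 alone.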

How the data were processed

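RNA of MC3T3-E1 cells was measured on 6 single-colour Agilent arrays (Cy3), 3 per group. Per the submitters' processing notes and the file headers, the deposited intensity values came from Agilent Feature Extraction 11.0.1.1, which background-subtracted and detrended the processed signal within each array. Per the file headers, 0 or 1 flags mark spots that are outliers, saturated or well above background. The authors' series matrix holds deposited log2 values made by steps not given in the sources used here. Its columns have medians of 5.78 and correlate with the log2 scanner signals at 0.997 to 1.00. It served as an alternative, and which background step and scaling it had stays unknown.

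Control and outlier spots were left out, each array's 75th percentile was subtracted on the log2 scale, and spots of a probe were averaged. Of 39429 probes, 27234 carried 1 gene symbol through their transcript accession in RefSeq (GRCm38.p6) and 12195 carried none. Probes well above background on at least 3 arrays (28380, of which 28175 had values on all arrays) were kept, and a gene was taken from its probe of highest mean level across arrays. Group differences came from limma 3.58.1 (R 4.3.3), tested on simulated data, over 15535 genes. It called 1658 genes, 989 higher and 669 lower, so that 59.7% of calls were higher, against 68.2% after normexp, 41.3% in the series matrix, 32.7% with median scaling and 39.3% with quantile normalization. Other alternatives were probe filters and averaging, spot outliers, an intensity trend, slide and replicate blocks and leaving out arrays. The number of arrays limits the precision. Normexp (offset 50) used the median spot signal, and 6 spots of FeMnSi 3 under a local background mark were left out of it.

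The members and lists were chosen with earlier results of these data known. All members were named whatever their result. For each other list the text names up to 4 genes per direction by smallest p-value, or 2 where none passed, with the members' receptors always, except 1 that is not reported here. Ccl4, Ccl6, Ccl11, Ccl12, Ccr9, Dpp4, Tyrobp, Spi1, Cdh5, Tek, Tie1, Emcn, Adipoq and Cidec fall outside this rule and were picked with their values in view.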

Additional observations from a re-analysis of the deposited data

How the results depend on the processing

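The number of genes past the threshold was 1658. It was 519 without the filter on dim probes, 648 with a replicate block, 194 when slide was a block, 57 using slide 1 alone, and 240 to 4476 without 1 array. The number of chemokine members past the threshold, 2, was 1 with median scaling, with the mean of the probes of a gene and with a replicate block. It was 0 without the filter, when slide was a block and using slide 1 alone, and 0 to 2 without 1 array. Ccl2 kept its direction under all 19 alternatives (0.64 to 0.89) and passed in 12, and Cxcl12 kept its direction (0.42 to 0.87) and passed in 8. Cx3cl1 stayed below 0 in all 19 and passed in none. Ccl5 changed sign in the series matrix (-0.15), under median scaling (-0.035), after quantile normalization (-0.15) and without FeMnSi 1 (-0.025, with up to 0.159 over the fits without 1 array), and Cxcl16 under median scaling (-0.025). The cause was not tested. Replicate numbers showed no clear pairing of the arrays: deviations of same-numbered arrays correlated at 0.01, -0.11 and 0.12, and 1 of 6 arrays correlated best with its own number. Such a check on 3 arrays per group cannot exclude pairing. With the replicate block Ccl2 passed (limma adjusted p = 0.0468) and Cxcl12 did not (0.0706). Raising low signals to the lowest signal well above background, chosen after seeing the data, changed no member's call. Signal over background limits Ccl7 and Ccl5, and for Cxcl1, Cxcl2, Cxcl5 and Cxcl14 no change could be measured.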

Other observations

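Among chemokine genes outside the 10, the probe of Ccl4, a macrophage chemokine, was very bright for a line of osteoblast type, with signals of 65005, 74849 and 71494 in De-HA and 65713, 33754 and 60786 in FeMnSi (log2 fold change 0.62, limma adjusted p = 0.161). Ccr9, a receptor of gut-homing lymphocytes, had 13276, 11706 and 8024 in De-HA and 13299, 3228 and 8258 in FeMnSi (0.77, limma adjusted p = 0.313, -0.22 within slide 1). Ccl6, a myeloid chemokine, had 189, 115 and 93.7 in De-HA and 91.9, 47.8 and 71.8 in FeMnSi (1.06, limma adjusted p = 0.0828). None of these 3 passed. All 3 were lowest on FeMnSi 2, as was probe A_55_P1966204 of Cxcl12. These genes were picked after their values were seen, and whether their probes share a property was not tested.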
